A study of Drosophila melanogaster with 72 samples.

Results

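Aminoacyl-tRNA synthetase genes were followed in RNA from whole brains of Drosophila melanogaster whose sleep was left alone, prevented by shaking, or altered by activating chosen neurons with heat. The genes were taken by symbol alone, as every listed gene named by a 3-letter amino acid code followed by RS, with or without the ending -m, plus the fused GluProRS. This gave 33 of the 13898 listed genes. Of these, 15 end in -m and are called mitochondrial here, and 18 do not and are called cytosolic. The split rests on the symbols, since the location of the enzymes was not measured. All 33 genes had a count in each of the 72 libraries (12 counts at least, in GluRS-m) and all 33 passed the filter on low counts in every fit. The phenylalanine subunits alpha-PheRS and beta-PheRS fall outside this rule and are counted with other partner genes below.

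An aminoacyl-tRNA synthetase joins an amino acid to its tRNA, and this step sets which amino acid the ribosome adds for each codon. Mitochondria have their own ribosomes, and most of their synthetases are separate proteins that are encoded in the nucleus and imported, while some genes make enzymes for both compartments. In animals GluProRS is a fusion of the glutamate and proline enzymes, and in mammals it is part of a complex of several synthetases held together by AIMP scaffold proteins. In mammals the transcription factor ATF4 raises many cytosolic synthetase genes when amino acids run short, and in humans inherited variants of both kinds of synthetase cause diseases of nerves or white matter.

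The 72 libraries fall into 24 groups of 3, which the labels call biological replicates, and each library pools 15 brains. P-values therefore measure the spread between pools. Undisturbed flies of iso31, a laboratory strain, were kept in light and dark at 25 °C and dissected at zeitgeber time (ZT, hours after lights on) 0, 4, 8, 12, 16 or 20. Sleep was prevented in other iso31 flies by 3, 6 or 12 h of shaking (vortexer) up to dissection at ZT0. Their temperature is not given in the labels. The remaining groups belong to 5 lines in which GAL4, a yeast transcription factor, switches on a transgene in a chosen set of neurons. Each line has 3 groups. TrpA1 29C carries GAL4 and UAS-TrpA1, a heat-activated cation channel, and was shifted from 21 °C to 29 °C. TrpA1 21C has the same genotype and stayed at 21 °C. GAL4 29C lacks UAS-TrpA1 and was shifted to 29 °C. The lines R21H11, R65H02, HC (hot cell) and R60F09 are described as wake-promoting, with a shift of 3 h that ended at ZT0. R85C10 is described as sleep-promoting in the protocol, with 12 h of daytime activation that ended at ZT12, although its titles speak of sleep deprivation. GAL4 29C and TrpA1 21C differ in temperature and in the transgene, so those cannot be told apart between them. GAL4 acts in chosen neurons, but RNA came from the whole brain. Fly age and sex are not in the labels, and brains were dissected in saline with channel blockers.

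Total counts ran from 4175585 to 13435802 a library, and the 33 members took 0.107% to 0.170% of them. TrpA1, the targeted transgene, had group means of 7.68 to 10.3 CPM (TMM-scaled counts relative to library size) in iso31 and 10.6 to 14.1 CPM in GAL4 29C. TrpA1 29C means ran from 24.1 CPM in R21H11 to 134 CPM in R85C10, and TrpA1 21C means from 13.8 CPM in HC to 301 CPM in R85C10. The HC TrpA1 21C value was close to the 11.4 CPM of HC GAL4 29C. Summed TPM (a transcript abundance that corrects for length) of 5 neuron markers ran from 1331 to 4384 over libraries, that of 5 glia markers from 673 to 1624, and the neuron markers elav and nSyb and the glia marker repo were above 0 in each library. Markers of tissue next to the brain also varied, with sums of 112.6 to 6681 TPM for 5 photoreceptor genes, 69.67 to 4010 for 6 fat body genes, 3.542 to 295.3 for 5 muscle genes and 71.12 to 213.5 for 4 hemocyte genes. The muscle gene Act88F was at 0 in 38 libraries and the fat body gene Lsp2 in 15. The mitochondrial genome's 13 protein genes held 1.68% to 9.17% of the counts. In these bulk samples, fewer cells of a type and less RNA per cell cannot be told apart.

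Cytosolic members were the more abundant class. Over 72 libraries the median cytosolic member had a mean of 36.49 TPM and the median mitochondrial member 17.74 TPM, against 33.91 TPM for the 9310 genes with a mean of at least 1 TPM. The summed level was 754 TPM for the 18 cytosolic and 337.3 TPM for the 15 mitochondrial members. ThrRS, the threonine enzyme, led with a mean of 109.1 TPM, followed by HisRS (histidine) at 77.56 TPM and AsnRS (asparagine) at 72.25 TPM. The lowest cytosolic members were CysRS (cysteine) at 18 TPM, LeuRS (leucine) at 17.9 TPM and ArgRS (arginine) at 16.14 TPM. The mitochondrial phenylalanine enzyme PheRS-m stood out in its class at 74.06 TPM, with AspRS-m (aspartate) next at 48.35 TPM and TrpRS-m (tryptophan) at 24.05 TPM. ValRS-m (valine) at 12.23 TPM, IleRS-m (isoleucine) at 9.203 TPM and GluRS-m (glutamate) at 4.808 TPM were the lowest.

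**Figure D1:**
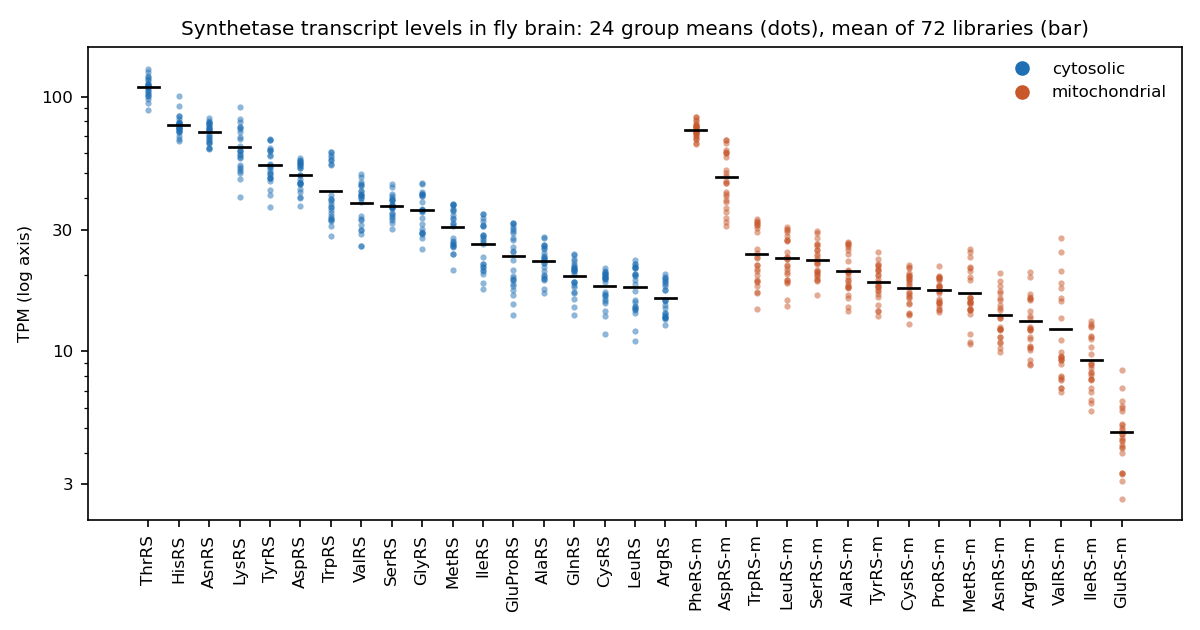
Transcript level in TPM (log axis) of the 18 cytosolic (blue) and 15 mitochondrial (orange) synthetase genes, with dots for the 24 group means and bars for the mean of 72 libraries. PheRS-m, at 74.06 TPM, lies among the most abundant cytosolic members, and the dots of ValRS-m spread from 6.944 to 27.79 TPM.

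For 12 amino acids both a cytosolic and a mitochondrial member were listed. No -m member was listed for glutamine, glycine, histidine, lysine or threonine. The cytosolic gene was the higher one in 72 of 72 libraries for asparagine, valine, tyrosine, isoleucine, methionine, tryptophan and serine, with ratios of mean TPM from 5.182 (asparagine) down to 1.633 (serine). Arginine had a ratio of 1.231, with the cytosolic gene higher in 65 libraries, and alanine a ratio of 1.099, with 55 libraries. For aspartate (1.016) and cysteine (1.014) the cytosolic gene was higher in 39 of 72 libraries each. Leucine was the exception, with LeuRS-m above LeuRS in all but 1 library and a ratio of 0.7684.

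Members differed in how far they moved between groups. ValRS-m had the widest range of group means, from 6.944 ± 1.085 TPM in R21H11 TrpA1 21C to 27.79 ± 5.034 TPM in HC GAL4 29C (SD, n = 3), a ratio of 4.002. GluRS-m was next with a ratio of 3.193, and PheRS-m (1.283) and AsnRS (1.325) had the narrowest ranges. The median ratio was 1.813 for cytosolic and 2.041 for mitochondrial members, against 2.103 for genes of at least 1 TPM. The highest group mean in TPM was in a 29 °C group for 32 of the 33 members, PheRS-m being highest at ZT20. Neither this count nor the next was taken over all genes. The median log2(TPM + 1) change of all genes tested in GAL4 29C against TrpA1 21C ran from 0.11 (R85C10) to 0.43 (R60F09). R60F09 TrpA1 21C was the lowest group for 20 members. Its library 1 had the largest mitochondrial genome share of all 72, 9.17%, and its neuron marker sum ran from 1608 to 2735 TPM. The part of these in its low values was not tested.

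The distance between the classes was taken in each library as the mean log2(TPM + 1) of the cytosolic members minus that of the mitochondrial ones. It averaged 0.94 over 72 libraries and ran from 0.69 to 1.13. In R65H02 it was 0.69, 0.89 and 0.75 in GAL4 29C, 0.99, 1.01 and 0.96 in TrpA1 21C, and 0.995, 0.91 and 0.91 in TrpA1 29C. HC had 0.81, 0.83 and 0.69 in GAL4 29C, 1.004, 1.001 and 0.97 in TrpA1 21C, and 0.79, 0.74 and 0.78 in TrpA1 29C. In R21H11, R65H02, HC and R60F09 all 3 GAL4 29C libraries lay below all 3 TrpA1 21C libraries of the line, while in R85C10 the values overlapped (0.85 to 0.89 against 0.82 to 0.96). The TrpA1 29C libraries lay within or below the TrpA1 21C range in both lines: in HC all 3 were below it and overlapped GAL4 29C, and in R65H02 2 of 3 were below it and all 3 were above GAL4 29C. Undisturbed ZT0 brains had 1.03, 1.13 and 1.02. The separation of GAL4 29C from TrpA1 21C depended on the use of means. With the median over members instead, the ranges overlapped in each of R21H11, R65H02, HC and R60F09. They were 0.76 to 0.93 against 0.79 to 0.95 in R21H11 and 0.72 to 0.97 against 0.58 to 1.05 in R65H02. In HC they were 0.58 to 0.84 against 0.74 to 0.82, and in R60F09 0.75 to 1.02 against 0.70 to 0.99.

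**Figure D2:**
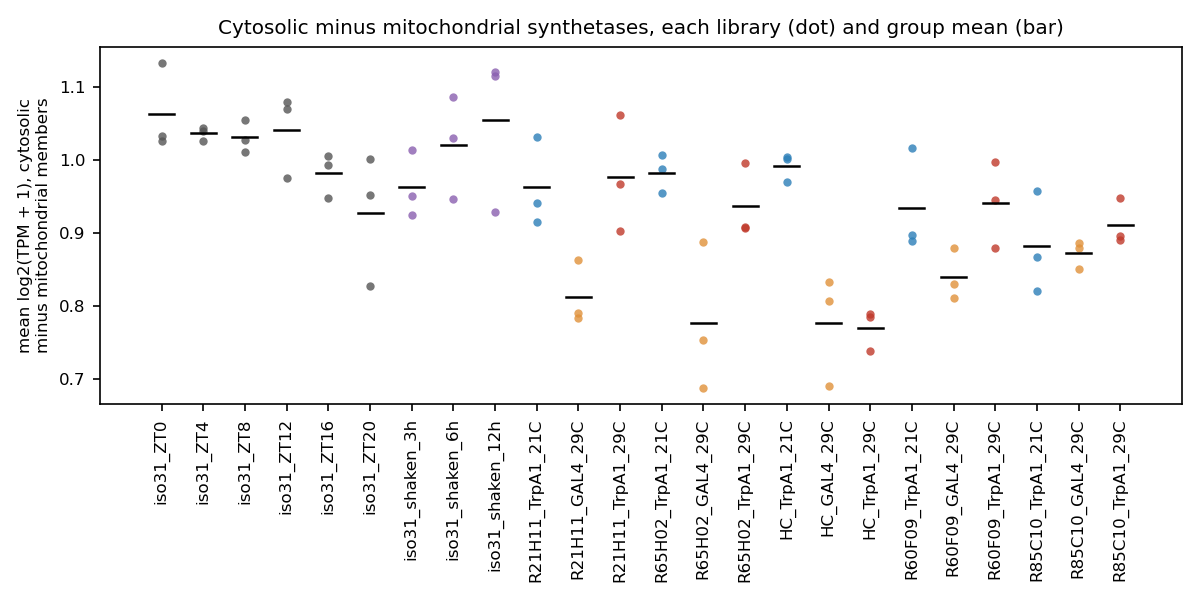
Mean log2(TPM + 1) of 18 cytosolic minus 15 mitochondrial members in each of 72 libraries (dots) with group means (bars), in 24 groups (grey undisturbed, purple shaken, blue TrpA1 21C, orange GAL4 29C, red TrpA1 29C). GAL4 29C lies lowest in R21H11, R65H02 and R60F09, and both 29 °C groups lie low in HC.

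Comparisons between groups used edgeR's quasi-likelihood test on rounded estimated counts, with Benjamini-Hochberg adjustment over all genes tested and a threshold of 0.05. Over the 18 contrasts of 1 group with another, 4 members were called in none (ArgRS, CysRS, GlnRS and CysRS-m), 11 were called higher in some contrasts and lower in none, 17 were called in both directions, and ProRS-m was called lower in 1 contrast. TrpRS was called higher in 9 contrasts, ValRS-m and GluProRS in 8 each and LysRS in 7. The contrasts of a line share libraries, and so do those of the shaken groups, so these counts are not independent of each other. They were not made over all genes, of which 0.247% to 53.8% were called in a single contrast. Whether members were called more often than other genes over the 18 contrasts was therefore not tested.

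**Figure D3:**
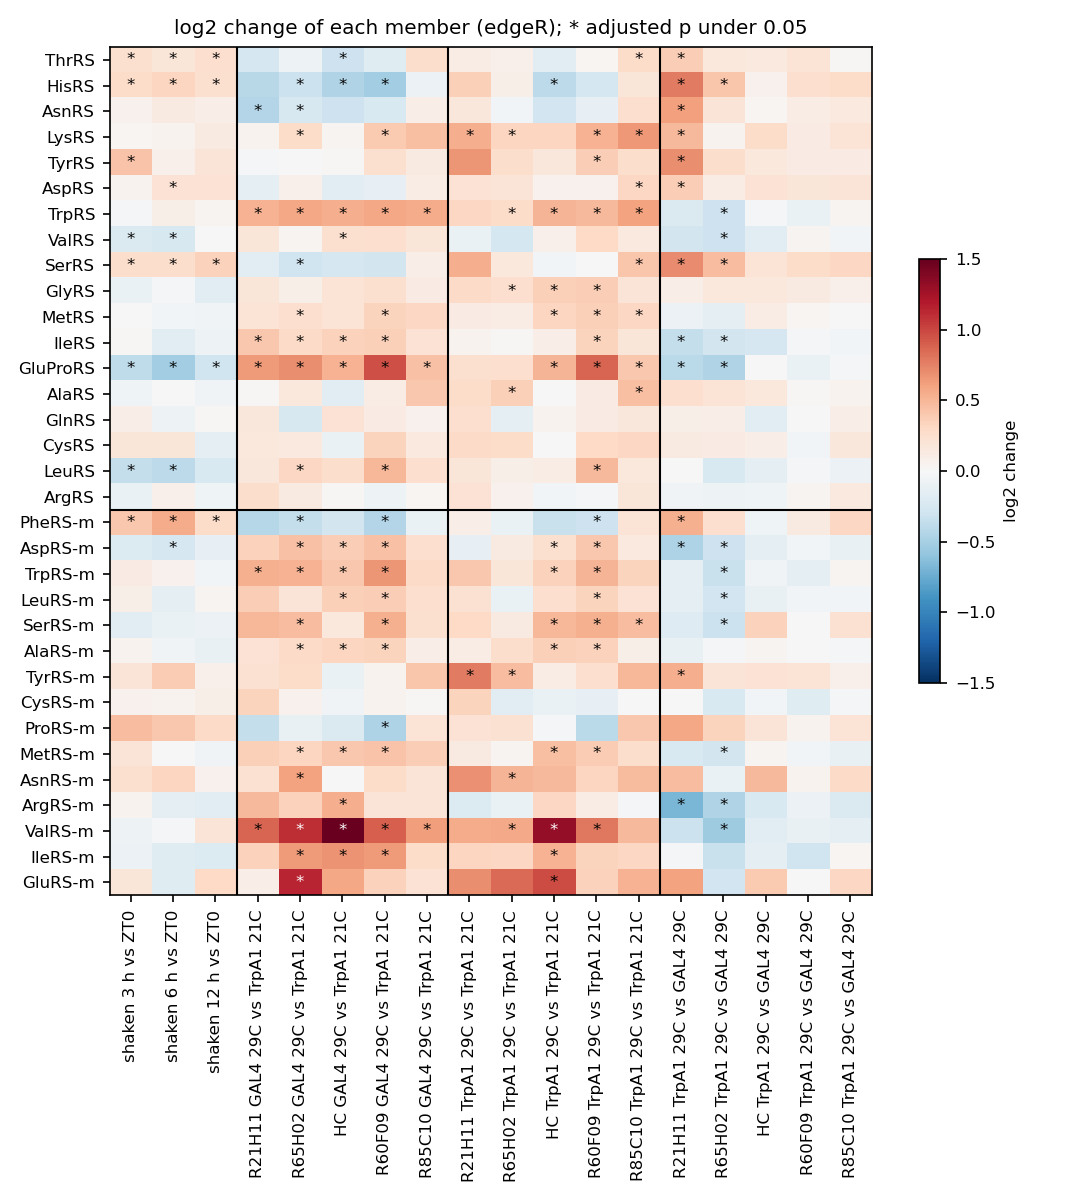
The log2 change of each of 33 members (rows, cytosolic above the line) in 18 contrasts (columns), red for higher and blue for lower, with a star for an edgeR adjusted p under 0.05. ValRS-m reaches 1.48 and 1.32 in HC, and TrpRS and GluProRS carry a star in all 5 contrasts of GAL4 29C with TrpA1 21C.

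GAL4 29C and TrpA1 21C differ in temperature and in the transgene. Counted in either direction, members were called between them at shares at or slightly above those of all genes. In GAL4 29C against TrpA1 21C, 6 members were called in R21H11, where 16.5% of genes tested were. Of these, 5 were higher (3 cytosolic and 2 mitochondrial; 6.74% of genes) and 1 cytosolic member was lower (9.72%). In R65H02, 19 were called at a background of 48.3%, with 15 higher (6 and 9; background 24%) and 4 lower (3 and 1; 24.3%). HC had 14 at 33.4%, with 12 higher (4 and 8; 15.8%) and 2 cytosolic members lower (17.5%). R60F09 had 17 at 48.9%, with 14 higher (6 and 8; 24.6%) and 3 lower (1 and 2; 24.4%). In R85C10, 3 were called at 9.02%, all higher (2 and 1; 4.18%). As shares of 33, the higher calls thus stood above the background in each line and the lower calls below it. The counts leaned on single libraries: with library 3 of GAL4 29C left out 7 were called in HC and 11 in R60F09, and over all 6 libraries of a line the count ran from 1 to 3 in R21H11 and from 0 to 6 in R85C10. Requiring a higher call in each of the 5 lines left 122 of 8525 genes, or 1.43%, and 3 of the 33 members, ValRS-m, TrpRS and GluProRS. Over the 4 wake-promoting lines alone 5.79% of genes and 5 members were left, with TrpRS-m and IleRS besides.

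ValRS-m, the mitochondrial valine enzyme, differed most. In HC it had 35.5, 46.2 and 35.4 CPM in GAL4 29C and 14.8, 14.6 and 12.9 CPM in TrpA1 21C, and 32.3, 36.1 and 37.5 CPM in TrpA1 29C. Both 29 °C groups lay well above the 21 °C group with no overlap. The change of GAL4 29C against TrpA1 21C was log2 1.48 ± 0.14 (SE; edgeR adjusted p 2.42e-05). In the line R65H02 the GAL4 29C libraries had 31.5, 26.2 and 29.6 CPM, TrpA1 21C had 15.1, 13.1 and 13.5 CPM and TrpA1 29C had 18.5, 21.5 and 22.3 CPM, so that the 3 groups were in separate ranges. Its change was 1.10 ± 0.12 (edgeR adjusted p 1.71e-05). In R60F09 GAL4 29C had 26.8, 27.9 and 25.7 CPM against 15.4, 14.0 and 14.8 CPM (0.89 ± 0.13, edgeR adjusted p 0.00032). R21H11 had 25.8, 21.9 and 19.7 CPM against 13.4, 12.6 and 11.7 CPM (0.87 ± 0.14, edgeR adjusted p 0.00717). In R85C10, shifted for 12 h of the day, the values were 24.2, 17.6 and 25.4 CPM against 12.9, 14.3 and 16.2 CPM (0.63 ± 0.16, edgeR adjusted p 0.0283). The groups did not overlap in any line. Over all lines, the 30 libraries of 29 °C ranged from 17.4 to 46.2 CPM and the 15 of 21 °C from 11.7 to 16.2 CPM. The 27 iso31 libraries ran from 11.2 to 17.8 CPM. The call was kept with each of 6 libraries left out in HC, R65H02, R60F09 and R21H11, and was lost in R85C10 with each of 4 of the 6.

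TrpRS, the cytosolic tryptophan enzyme, rose in each line by a similar amount. In R65H02 it had 42.5, 44.4 and 40.8 CPM in GAL4 29C and 30.2, 29.7 and 27.4 CPM in TrpA1 21C, and in R60F09 42.8, 40.3 and 44.4 CPM against 28.7, 29.4 and 28.8 CPM. The groups lay apart in both lines. The log2 changes were 0.58 in R65H02 (edgeR adjusted p 0.000288), 0.58 in R60F09 (0.000815), 0.55 in HC (0.00358), 0.56 in R85C10 (0.00781) and 0.52 in R21H11 (0.0429). In R21H11 the call was lost with any of the 6 libraries left out, the highest edgeR adjusted p being 0.155. In R85C10 it was lost with 2 of the 6 libraries left out in turn. Its mitochondrial counterpart TrpRS-m was called in R21H11 (0.54, edgeR adjusted p 0.0325) and R60F09 (0.66, edgeR adjusted p 0.00461), and in 4 of 5 lines in all. In R60F09 it had 34.2, 35.9 and 35.4 CPM in GAL4 29C and 15.9, 23.3 and 28.3 CPM in TrpA1 21C. These groups did not overlap, and library 1 of TrpA1 21C was the lowest of them.

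GluProRS, the fused glutamate and proline enzyme, rose most in R60F09, with 66.7, 74.3 and 75.8 CPM in GAL4 29C against 28.0, 43.8 and 40.4 CPM in TrpA1 21C. Again library 1 of TrpA1 21C was the lowest. The change was 0.97 ± 0.14 (edgeR adjusted p 0.000313), followed by 0.70 in R65H02 (7.1e-05), 0.64 in R21H11 (0.0161), 0.52 in HC (0.00238) and 0.44 in R85C10 (0.0354). The call held with each of 6 libraries left out in HC, R60F09 and R65H02, with 3 of 6 in R21H11 and with 1 of 6 in R85C10. An antisense gene, asRNA:CR46092, overlaps its exons by 759 bases in the reference annotation, and since the strand of counting is not given, its reads cannot be told apart from those of GluProRS there. The same holds for AspRS and asRNA:CR45141 (1025 bases). CysRS-m overlaps CG13016 by 302 bases, SerRS-m overlaps Nagk by 251 and ArgRS-m overlaps mRpS9 by 163, all on the opposite strand. HisRS overlaps Bx by 255 and AspRS overlaps asRNA:CR43468 by 154 on the same strand, where a known strand would not help. Reads of these members are uncertain in those stretches.

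**Figure D4:**
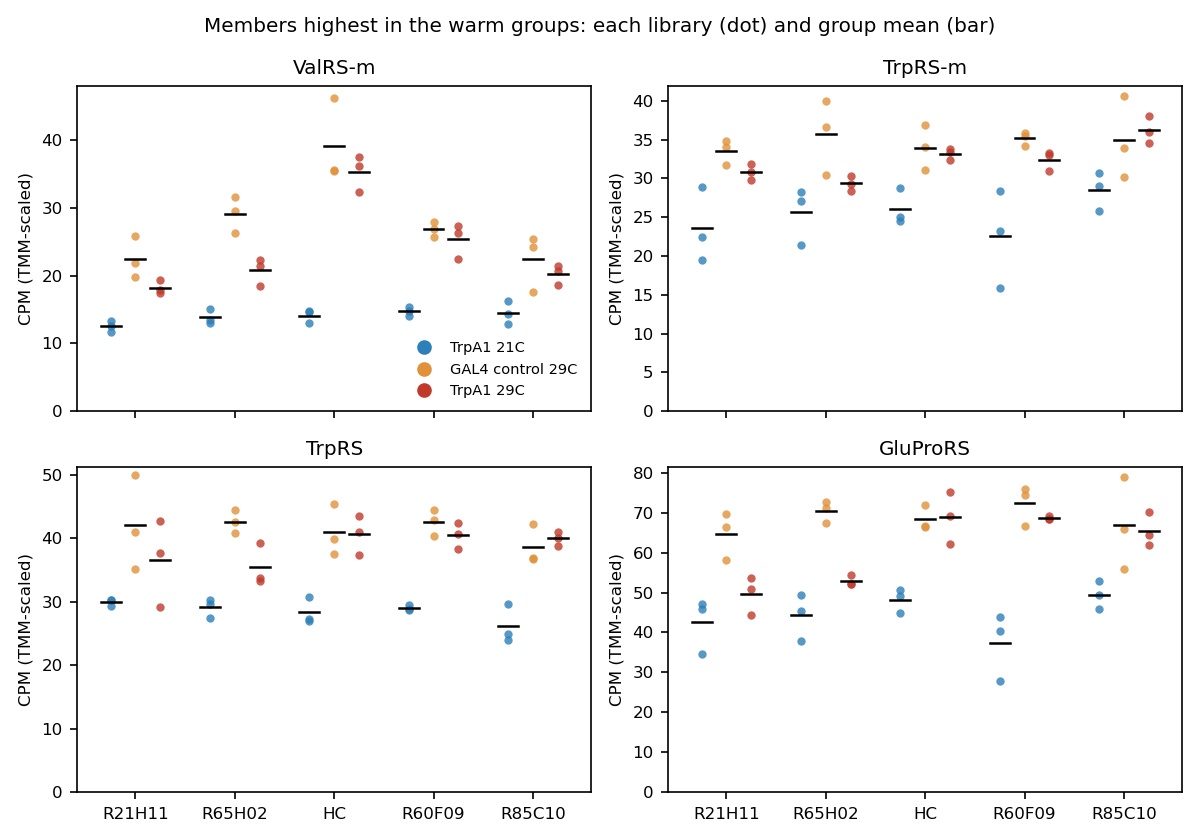
Level in CPM of ValRS-m, TrpRS-m, TrpRS and GluProRS in each library (dots) of the 5 lines, with bars for the means of TrpA1 21C (blue), GAL4 29C (orange) and TrpA1 29C (red). ValRS-m in the 29 °C groups lies at 17.4 CPM or above and in TrpA1 21C at 16.2 CPM or below.

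Other members were called in both directions in this contrast. AspRS-m rose in R65H02 (0.44, edgeR adjusted p 0.00106), R60F09 (0.44, 0.0071) and HC (0.37, 0.0073). SerRS-m (serine) rose in R65H02 (0.47, edgeR adjusted p 0.00245) and MetRS-m (methionine) in HC (0.41, 0.0126). Among cytosolic members IleRS rose in R21H11 (0.40, edgeR adjusted p 0.042) and HC (0.35, 0.0169), LeuRS in R60F09 (0.50, 0.00825) and LysRS (lysine) in R65H02 (0.27, 0.0128). HisRS fell in R60F09 by 0.52 (edgeR adjusted p 0.00298), in HC by 0.45 (0.0143) and in R65H02 by 0.32 (0.0134). In R60F09 HisRS had 65.7, 68.6 and 74.6 CPM in GAL4 29C and 102.7, 114.1 and 87.3 CPM in TrpA1 21C, which did not overlap. AsnRS fell in R21H11 by 0.44 (edgeR adjusted p 0.0457) and in R65H02 by 0.24 (0.0396), ThrRS in HC by 0.31 (0.0111) and SerRS in R65H02 by 0.30 (0.0145). PheRS-m fell in R60F09 by 0.44 (edgeR adjusted p 0.00968) and in R65H02 by 0.36 (0.0166), and ProRS-m (proline) in R60F09 by 0.47 (0.0296). With the correction for transcript length described below, several of these calls were lost. AspRS-m had 0.10 in R60F09 (edgeR adjusted p 0.261) and 0.16 in HC (0.0898), LeuRS 0.19 in R60F09 (0.217), and IleRS 0.18 in R21H11 (0.237) and 0.15 in HC (0.214). PheRS-m had -0.18 in R60F09 (edgeR adjusted p 0.15) and in R65H02 (0.146), ProRS-m -0.21 (0.315), SerRS -0.18 (0.0996), and AsnRS -0.36 in R21H11 (0.0537) and -0.16 in R65H02 (0.122). The HisRS falls, the ThrRS fall and the rises of SerRS-m, MetRS-m, LysRS and, in R65H02, AspRS-m kept theirs.

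As a class, the mitochondrial members lay higher than the cytosolic ones in this contrast. In the order R21H11, R65H02, HC, R60F09, R85C10 their median log2 changes were 0.34, 0.35, 0.36, 0.34 and 0.24. The cytosolic medians were 0.16, 0.12, 0.03, 0.24 and 0.16, and those of all genes tested -0.02, -0.03, -0.03, -0.02 and 0.03. The mitochondrial gene changed more, in the signed sense, than its cytosolic partner in 11, 9, 10, 9 and 9 of the 12 pairs. This did not extend to the other contrasts in each line. In TrpA1 29C against TrpA1 21C it changed more in 8, 4, 9, 9 and 6 pairs, in the same order. In TrpA1 29C against GAL4 29C it did so in 2, 0, 5, 1 and 4 pairs. Other measures moved with the groups in the wake-promoting lines. Neuron marker sums were higher in GAL4 29C (3563 to 4384 TPM over these lines) than in TrpA1 21C (1608 to 3045 TPM), and the mean mitochondrial genome share was 2.08% to 2.44% against 3.39% to 6.05%. In R85C10 the neuron marker sums were 3480 to 4344 TPM in GAL4 29C and 3779 to 4076 TPM in TrpA1 21C, which overlap, and the mean mitochondrial genome share was 2.18% and 3.02%. The part of these measures in the class difference and in the members' calls was not tested.

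TrpA1 29C against TrpA1 21C compares flies of 1 genotype, so that the temperature and the activation of the neurons differ but the transgene does not. In R60F09, 16 members were called at a background of 44.7%, with 15 higher (8 cytosolic and 7 mitochondrial; 22.3% of genes) and 1 mitochondrial member lower (22.4%). HC had 13 at 33.5%, with 12 higher (4 and 8; 15.8%) and 1 cytosolic member lower (17.6%). R85C10 had 9 at 18.7%, all higher (8 and 1; 9.44%). R65H02 had 7 at 30.3%, all higher (4 and 3; 13.5%), and R21H11 had 2 at 3.03%, both higher (1 of each class; 1.48%). ValRS-m rose in HC by 1.32 ± 0.13 (edgeR adjusted p 5.38e-05), in R60F09 by 0.79 (0.00068) and in R65H02 by 0.57 (0.00367). It had log2 changes of 0.55 in R21H11 (edgeR adjusted p 0.0594) and 0.48 in R85C10 (0.0519), which did not pass. In R65H02 the neuron marker sums were 2125 to 2527 TPM in TrpA1 29C and 2451 to 2999 TPM in TrpA1 21C, and the mean mitochondrial genome share was 4.99% and 3.39%. The part of these in the ValRS-m value was not tested.

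LysRS, the lysine enzyme, was called higher in 4 lines in this contrast, and the call held with each library left out in R85C10, R60F09 and R65H02 but with 1 of 6 in R21H11. In R85C10 it had 89.5, 64.8 and 62.2 CPM in TrpA1 29C and 44.1, 48.4 and 44.3 CPM in TrpA1 21C. All 3 activated libraries were above all 3 controls, with library 1 far above the other two. Its change was 0.65 in R85C10 (edgeR adjusted p 0.00947), 0.54 in R21H11 (0.0489), 0.52 in R60F09 (0.00305) and 0.32 in R65H02 (0.00816). TrpRS rose in R85C10 (0.60, edgeR adjusted p 0.00326), HC (0.51, 0.00433) and R60F09 (0.48, 0.00255), and GluProRS in R60F09 (0.87, 0.000628) and HC (0.51, 0.00214). None of the 33 was called higher in all 5 lines, against 0.751% of genes. SerRS-m rose in R60F09 (0.53, edgeR adjusted p 0.0123), HC (0.50, 0.0103) and R85C10 (0.47, 0.0394), AspRS-m in R60F09 (0.40, 0.0122) and MetRS-m in HC (0.45, 0.00733). In R65H02 AsnRS-m (0.50, edgeR adjusted p 0.0236), TyrRS-m (0.47, 0.0311), AlaRS (0.36, 0.0225) and GlyRS (0.25, 0.0413) rose, the last of them also in HC (0.36, 0.016). SerRS rose in R85C10 (0.42, edgeR adjusted p 0.0142). HisRS fell in HC by 0.39 (edgeR adjusted p 0.0255) and PheRS-m in R60F09 by 0.31 (0.0495). With each of 6 libraries left out in turn, AlaRS and GlyRS in R65H02 and SerRS-m in R85C10 kept the call with 1. PheRS-m in R60F09 kept it with 2, and TyrRS-m in R65H02 and HisRS in HC with 3. AsnRS-m in R65H02, GlyRS in HC and SerRS in R85C10 kept it with 4, and AspRS-m in R60F09 with 5. The TrpRS, GluProRS and MetRS-m calls, and SerRS-m in R60F09 and HC, held with all 6. With the length correction the AspRS-m and PheRS-m calls in R60F09 were lost (0.12, edgeR adjusted p 0.192, and -0.10, 0.427).

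TrpA1 29C against GAL4 29C compares flies at the same temperature, and here the lines parted, in all genes as in the members. In HC 0 members were called by edgeR, with 4 at an unadjusted p under 0.05, at a background of 0.989%. R60F09 had 0 (2 unadjusted) at 0.247%, and R85C10 0 (2 unadjusted) at 1.44%. DESeq2 and limma on log2 TPM also called 0 in these 3 lines. In R21H11, 13 were called at 47.2%, with 9 higher (7 cytosolic and 2 mitochondrial; 25.1% of genes) and 4 lower (2 and 2; 22.1%). In R65H02, 13 were called at 53.8%, with 2 cytosolic members higher (26.9%) and 11 lower (4 and 7; 26.9%). Neuron marker sums in these 2 lines were also lower in TrpA1 29C (1331 to 2418 and 2125 to 2527 TPM) than in GAL4 29C (4041 to 4291 and 4118 to 4384 TPM), and the mean mitochondrial genome share was 4.50% and 4.99% in TrpA1 29C. In HC, R60F09 and R85C10 that share was 1.98%, 1.84% and 2.43%. Their part in the members' calls was not tested.

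HisRS was among the members called in both R21H11 and R65H02, while no member at all was called in the other lines. In R21H11 it had 112.7, 149 and 106.9 CPM in TrpA1 29C and 70.3, 72.2 and 70.9 CPM in GAL4 29C, with no overlap and library 2 the highest. It rose by 0.77 ± 0.14 (edgeR adjusted p 0.00357), and by 0.42 in R65H02 (0.00245). SerRS rose by 0.70 in R21H11 (edgeR adjusted p 0.00398) and 0.46 in R65H02 (0.000865). AsnRS (0.61, edgeR adjusted p 0.00516), TyrRS-m (0.54, 0.0311) and PheRS-m (0.53, 0.0351) rose in R21H11. GluProRS fell by 0.40 in R21H11 (edgeR adjusted p 0.0296) and 0.45 in R65H02 (0.00113), and IleRS fell by 0.35 in R21H11 (0.0303). In R21H11 ArgRS-m fell by 0.69 (edgeR adjusted p 0.0199) and AspRS-m by 0.47 (0.0199). In R65H02 the falls were 0.54 for ValRS-m (edgeR adjusted p 0.0018), 0.33 for SerRS-m (0.0165), 0.31 for AspRS-m (0.00851), 0.31 for TrpRS (0.0136) and 0.31 for ValRS (0.0256). With the length correction the falls of GluProRS were not called, at 0.15 in R21H11 (edgeR adjusted p 0.363) and -0.02 in R65H02 (0.886). IleRS then had 0.06 in R21H11 (edgeR adjusted p 0.722), AspRS-m -0.04 in R21H11 (0.79) and 0.03 in R65H02 (0.807), ValRS -0.08 in R65H02 (0.593) and ArgRS-m -0.57 in R21H11 (0.0598). The rises of TyrRS-m (0.20, edgeR adjusted p 0.377) and PheRS-m (0.17, 0.4) in R21H11 were lost too, while those of HisRS and SerRS in both lines and of AsnRS in R21H11 kept their calls.

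Whether these effects differed among the 4 wake-promoting lines was tested directly with an interaction term. By edgeR adjusted p against GAL4 29C, 3 members differed (AsnRS, HisRS and SerRS-m), while 36.7% of genes did. Against TrpA1 21C, 4 did (ValRS-m, HisRS, GluProRS and SerRS), while 41.6% of genes did.

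Few members separated the activated flies from both of their controls, which asks what neither temperature nor genotype alone gives. In R21H11, LysRS and TyrRS-m were higher than in both, where 1.45% of genes were called in either direction and 0.754% higher. LysRS had 78.0, 90.1 and 73.7 CPM in TrpA1 29C, 65.2, 47.5 and 58.1 CPM in GAL4 29C and 57.7, 56.5 and 53.8 CPM in TrpA1 21C. TyrRS-m, the mitochondrial tyrosine enzyme, had 16.1, 23.2 and 18.3 CPM, against 12.4, 12.6 and 14.0 CPM and 9.67, 11.7 and 12.6 CPM. In both genes the activated libraries lay above all 6 controls. LysRS was higher by 0.49 and 0.54 (larger edgeR adjusted p 0.0489), and TyrRS-m by 0.54 and 0.78 (larger edgeR adjusted p 0.0487). Both values are close to the threshold. With a correction for transcript length the larger edgeR adjusted p was 0.0583 for LysRS and 0.377 for TyrRS-m, and 0 members were called with any 1 of the 6 control libraries left out. In the other lines edgeR called 0 members against both controls, with 1 at an unadjusted p under 0.05 in R65H02 (background 17.5%), 3 in HC (0.523%), 0 in R60F09 (0.0898%) and 1 in R85C10 (0.955%). DESeq2 also called 0 in each of these 4 lines.

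The shaken flies ask how brain transcripts stand after enforced waking. Their control, undisturbed ZT0, belongs to the circadian profiling by its titles and the shaken flies to another experiment, so shaking and the experiment cannot be told apart. After 3 h, 8 members were called at a background of 23.6%, with 5 higher (4 cytosolic and 1 mitochondrial; 11.5% of genes) and 3 cytosolic members lower (12.1%). After 6 h there were 9 at 46.1%, with 5 higher (4 and 1; 23.7%) and 4 lower (3 and 1; 22.5%). After 12 h there were 5 at 16.3%, with 4 higher (3 and 1; 9.12%) and 1 cytosolic member lower (7.16%). With 1 library left out, 5 were called at 3 h whichever it was, between 5 and 8 at 6 h, and between 0 and 3 at 12 h, the 0 without ZT0 library 3. PheRS-m rose at each time, with 47.3, 48.9 and 44.4 CPM at ZT0, 62.3, 58.2 and 64.3 CPM after 3 h, 66.2, 73.8 and 66.2 CPM after 6 h and 58.5, 53.2 and 56.5 CPM after 12 h. All shaken libraries lay above all ZT0 libraries. The changes were 0.40 ± 0.07 (edgeR adjusted p 0.00135), 0.55 ± 0.07 (1.94e-05) and 0.28 ± 0.07 (0.0208).

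HisRS and ThrRS also rose at each time, HisRS by 0.28 (edgeR adjusted p 0.00997), 0.32 (0.00141) and 0.24 (0.0327). ThrRS rose by 0.25 at 3 h (edgeR adjusted p 0.0118), 0.18 at 6 h (0.0336) and 0.25 at 12 h (0.0174). It went from 120.2, 122.3 and 121.6 CPM at ZT0 to 157.1, 136.6 and 134.8 CPM after 3 h. On log2(TPM + 1) the ThrRS changes were 0.0015, -0.23 and 0.018. With each of 6 libraries left out in turn, its call held with 2 at 3 h and with 1 at 12 h. TyrRS, the cytosolic tyrosine enzyme, rose by 0.43 at 3 h (edgeR adjusted p 0.00182), with 43.0, 44.0 and 42.6 CPM at ZT0, 55.9, 55.6 and 62.2 CPM after 3 h and 46.4, 50.1 and 39.5 CPM after 6 h. SerRS rose by 0.27 at 6 h (edgeR adjusted p 0.0207) and 0.35 at 12 h (0.0155), and AspRS by 0.22 at 6 h (0.0293). GluProRS fell at each time, from 61.4, 58.4 and 68.9 CPM at ZT0 to 48.0, 47.1 and 49.4 CPM after 3 h and 45.1, 46.5 and 39.7 CPM after 6 h. Its groups did not overlap. The falls were 0.38 (edgeR adjusted p 0.00378), 0.52 (9.95e-05) and, at 12 h, 0.30 (0.0209). At 3 and 6 h LeuRS fell by 0.35 (edgeR adjusted p 0.0267) and 0.40 (0.00718) and ValRS by 0.22 (0.0382) and 0.24 (0.0111), and AspRS-m fell by 0.26 at 6 h (0.016). The 3 shaken groups compared with each other, without ZT0, differed in 2 members, TyrRS (edgeR adjusted p 0.0203) and PheRS-m (0.0458), where 15.8% of genes differed. Neuron marker sums lay below the ZT0 range of 3648 to 3768 TPM. They were 2731 to 2834, 2011 to 2172 and 2492 to 3104 TPM after 3, 6 and 12 h. Glia sums also lay below ZT0 (1069 to 1237 TPM), at 899.8 to 1057, 673 to 858.2 and 814 to 990.1 TPM. Hemocyte sums did too, at 102.8 to 116.9, 71.12 to 78.09 and 89.62 to 116.3 TPM against 122.5 to 154.2. Photoreceptor sums did so only at 6 h, and fat body and muscle sums overlapped ZT0. The all-gene median log2(TPM + 1) change was -0.21, -0.35 and -0.21. The mitochondrial genome share went from 2.62% to 4.13%, 6.38% and 4.26%. Their part in these calls was not tested.

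Over 6 zeitgeber times in undisturbed flies, 3 members differed, PheRS-m (edgeR adjusted p 0.00361), HisRS (0.0442) and ProRS-m (0.0453), where 15.1% of genes did. With group means removed, libraries of the same replicate number correlated across times (mean r 0.367), which this test did not model. PheRS-m had 69.3, 63.5 and 73.0 CPM at ZT20, and the other 15 libraries ran from 44.4 to 62.6 CPM. HisRS had 93.7, 82.6 and 91.0 CPM at ZT20, and ProRS-m 14.6, 12.2 and 16.6 CPM. ZT20 was the highest group for each of the 3. Its neuron marker sums were 2378 to 2875 TPM and its mitochondrial genome share was 4.82%, values near those of the shaken flies. Without ZT20, a setting that was added once the values were known, edgeR called 0 members, with 2 at an unadjusted p under 0.05, and 48 of 9201 genes.

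Transcript length went with many of these changes. A gene's effective length was taken as its estimated counts divided by its TPM, and is given relative to the median gene. The class medians were alike, 1.19 for cytosolic and 1.227 for mitochondrial members, while GluProRS (2.446) was the longest and AsnRS-m (0.6876) the shortest. Across the 33 members, which are not independent, the log2 change had a Pearson r with log2 length of -0.71 at 3 h, -0.79 at 6 h and -0.68 at 12 h of shaking, as a description. In GAL4 29C against TrpA1 21C it was 0.55 in R60F09, 0.47 in R21H11 and HC, 0.27 in R85C10 and 0.25 in R65H02. All members of a contrast share its libraries, and their base composition was not used.

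**Figure D5:**
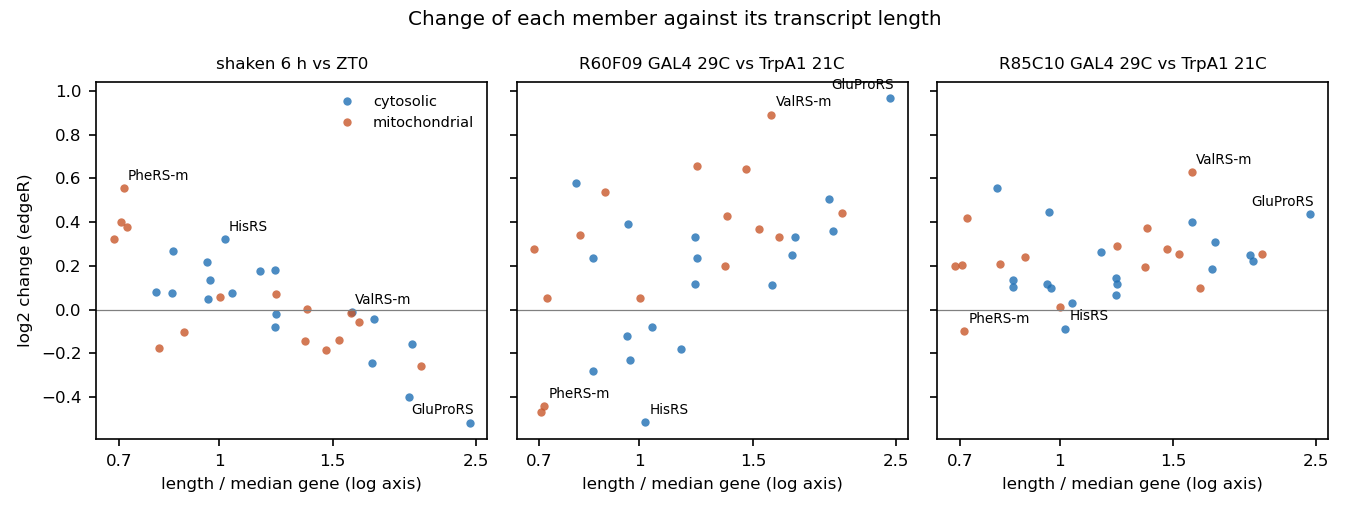
The log2 change of each member (blue cytosolic, orange mitochondrial) against its length relative to the median gene (log axis) in 3 contrasts. Points slope down after 6 h of shaking (r -0.79) and up in R60F09 GAL4 29C against TrpA1 21C (r 0.55), and ValRS-m lies high in both GAL4 29C panels.

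When each library was corrected for its trend of expression on length, the falls after shaking were no longer called: GluProRS had edgeR adjusted p values of 0.138, 0.133 and 0.318, and LeuRS and ValRS also lost theirs. ThrRS stayed past the threshold at 3, 6 and 12 h (edgeR adjusted p 0.021, 0.0468 and 0.0387), HisRS and PheRS-m at 3 h (0.0468 and 0.0448) and 6 h (0.0143 and 0.00543), and TyrRS at 3 h (0.0245). In GAL4 29C against TrpA1 21C, ValRS-m kept changes of 0.64 to 1.36 and TrpRS of 0.53 to 0.77 in all 5 lines, each past the threshold, at a background of 1.87% of genes called higher in all 5. GluProRS kept it in 4 lines, losing it in R21H11 (edgeR adjusted p 0.0683). In the order above the mitochondrial class medians became 0.29, 0.30, 0.26, 0.30 and 0.21. In TrpA1 29C against TrpA1 21C, ValRS-m, LysRS and GluProRS were called higher in all 5 lines after this correction, at a background of 1.77%.

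Genes that work with the synthetases were counted from lists, each of which had 9 genes tested. Among 9 partners (alpha-PheRS, beta-PheRS, AIMP1, AIMP2, AIMP3, Slimp, GatA, GatB and GatC) 3, 5 and 1 rose after 3, 6 and 12 h of shaking and 0 fell, where 11.5%, 23.7% and 9.12% of all genes were called higher. The scaffold gene AIMP2 rose by 0.51 at 6 h (edgeR adjusted p 7.54e-05) and AIMP3 by 0.53 (0.00105), and with the length correction both lost the call (edgeR adjusted p 0.422 and 0.753). In GAL4 29C against TrpA1 21C, edgeR called 0 partners higher in any line, while 5 fell in R60F09, 3 in R65H02, 2 in HC and 1 in R21H11, where 24.4%, 24.3%, 17.5% and 9.72% of all genes did. In R85C10 edgeR called 0, with 1 at an unadjusted p under 0.05, and limma on TPM called 0. AIMP3 fell by 0.77 in R60F09 (edgeR adjusted p 0.000925) and AIMP2 by 0.48 (0.00568), again not past the threshold with the length correction (edgeR adjusted p 0.334 and 0.956). In TrpA1 29C against TrpA1 21C, 4 partners rose in R65H02 (13.5% of all genes) and 1 in R85C10 (9.44%), while 3 fell in R60F09 (22.4%) and 1 in HC (17.6%). In GAL4 29C against TrpA1 21C the shares of all genes called higher and lower were 6.74% and 9.72% in R21H11, 24% and 24.3% in R65H02, 15.8% and 17.5% in HC, 24.6% and 24.4% in R60F09, and 4.18% and 4.85% in R85C10. Beside these, of 9 cytosolic elongation and release factors, 2 rose and 0 fell in both R21H11 and R85C10, 3 and 1 in R65H02, 2 and 2 in HC, and 2 and 3 in R60F09. Of 9 mitochondrial translation factors, 0 were called in R21H11 and R85C10 by edgeR (2 at an unadjusted p under 0.05 in each) or by limma on TPM, and at most 2 rose and 1 fell in any other line. Of 9 genes of the ATF4 branch and amino acid supply, between 1 and 2 rose and between 0 and 2 fell in each line.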

How the data were processed

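RNA of pooled brains was measured by RNA-seq in 72 libraries, prepared with PicoPure RNA isolation and the NEBNext Ultra II kit, per the labels' protocols. The deposited estimated counts per gene and TPM values were made by the authors, and the submitters' processing notes name kallisto 0.46.1. The genome build, annotation and strand setting are not given in the sources used here, so no coordinates are printed, and a reference annotation served only for names and overlapping genes. Total estimated counts of 4175585 to 13435802 a library set the counting error. The p-values and SE also take in the spread between pools. Of the estimated counts, 89.0% lay within 0.02 of a whole number, and all were rounded.

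Groups came from the labels. edgeR 4.0.16 (R 4.3.3; filterByExpr, TMM, robust quasi-likelihood fit) was run on all genes of the shaken and ZT0 groups, the 6 zeitgeber times, each line, and the 4 wake-promoting lines together, with Benjamini-Hochberg adjusted p under 0.05 as the call. The SE of a log2 change was derived from its F statistic. A member called against both controls passed in both contrasts with the same sign, and its larger p is printed. CPM are TMM-scaled. Class distances used log2(TPM + 1). Alternatives were RLE scaling, DESeq2 1.42.0, no low-count filter, a replicate block, limma 3.58.1 on log2(TPM + 1), an offset for each library's trend on gene length (lowess span 0.3) without and with the block, and leaving out each library (not for the 2 interaction tests, which were not refitted). Leaving out ZT20 was added later. The fits were tested on simulated data. Python 3.11.15 with pandas 2.3.3 and matplotlib 3.10.9 made summaries and plots.

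The members and gene lists were chosen with earlier results of these data known. Of 70 list genes 66 matched. In each comparison up to 3 called members a direction and class with the smallest adjusted p are named, all of them where 6 or fewer were called, and in lists up to 2 genes. Other members appear in counts. No 2 replicates of a group were duplicates: chi-square per gene between any replicates of a group was at least 2.72. Libraries of different groups were not compared in this way.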

Additional observations from a re-analysis of the deposited data

Results flagged for a closer look

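The effect of activation differed between the 4 wake-promoting lines by an interaction test for 3 members against GAL4 29C and for 4 members against TrpA1 21C. At an unadjusted p under 0.05 the counts were 7 and 7. Since 36.7% and 41.6% of all genes differed in the same edgeR tests, the adjusted counts are no larger than the background there. Limma on TPM called more members in both tests, as given below, and its shares of all genes are not given here.

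Against GAL4 29C, SerRS-m had the smallest edgeR adjusted p (0.0134), with log2 changes of -0.19 in R21H11, -0.33 in R65H02, 0.34 in HC and -0.01 in R60F09. HisRS (edgeR adjusted p 0.0167) had 0.77, 0.42, 0.06 and 0.26 in the same order, and AsnRS (0.0372) had 0.61, 0.19, 0.03 and 0.11. The 2 lines with the higher HisRS values, R21H11 and R65H02, are also those whose neuron marker sums were lower in TrpA1 29C than in GAL4 29C, and the part of this was not tested.

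Against TrpA1 21C, ValRS-m (edgeR adjusted p 0.00182) had 0.55 in R21H11, 0.57 in R65H02, 1.32 in HC and 0.79 in R60F09, the same sign in each. HisRS (edgeR adjusted p 0.00362) had 0.36, 0.09, -0.39 and -0.26. GluProRS (0.0137 by edgeR, adjusted) had 0.24, 0.25, 0.51 and 0.87, and SerRS (0.0188) had 0.54, 0.16, -0.04 and 0.00. With the length correction the edgeR adjusted p was 0.0259 for ValRS-m, 0.0114 for HisRS, 0.669 for GluProRS and 0.13 for SerRS, and against GAL4 29C 0.00672 for SerRS-m, 0.0312 for HisRS and 0.08 for AsnRS.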

How the results depend on the processing

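Of 17 counts of called members, 16 stayed within 1.5 times under DESeq2 and under RLE scaling, 15 without the low-count filter, 12 with the replicate block, 10 with limma on TPM and 7 with the length offset, without or with the block. The cause was not tested for any change below. The shares of all genes called under these settings are not given here. The counts therefore show only how calls depend on the setting, and not how members stand beside other genes. After shaking, the counts of 8, 9 and 5 at 3, 6 and 12 h became 4, 3 and 1 with the length offset and 2, 2 and 0 with offset and block, and TPM gave 22 at 6 h. For equality of the shaken groups (2) DESeq2, no filter, the replicate block and the length offset gave 1 each, and offset with block 0. For the 6 zeitgeber times (3) TPM gave 6, the offset 1, and leaving out ZT20 gave 0, with the replicate block as well. TPM gave 11 for the interaction against GAL4 29C (3) and 19 for that against TrpA1 21C (4). Against both controls, R21H11 (2) had 1 under RLE, 4 without filter, 0 with the replicate block, 0 with TPM and 1 with offset and block, and R65H02 (0) had 1 with the block, 1 with the offset and 1 with both. In GAL4 29C against TrpA1 21C the offset and the offset with block gave 12 and 12 in R65H02 (19), 9 and 8 in HC (14), 10 and 11 in R60F09 (17), and 8 and 8 in R85C10 (3). There the replicate block gave 2 in R21H11 (6) and 5 in R85C10, and TPM 3 and 7. The class distance was 0.78 over the 12 pairs alone, against 0.94.

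With 1 library left out the counts ran from 5 to 5, 5 to 8 and 0 to 3 after 3, 6 and 12 h of shaking, 0 to 2 for their equality and 1 to 4 for the zeitgeber times. They ran from 1 to 3 (R21H11), 13 to 18 (R65H02), 7 to 15 (HC), 11 to 21 (R60F09) and 0 to 6 (R85C10) in GAL4 29C against TrpA1 21C, and against both controls from 0 to 3 in R21H11, 0 to 1 in R65H02 and 0 to 0 in HC, R60F09 and R85C10. The count against both controls in R65H02 was 1 without library 3 of TrpA1 21C, and the equality count was 0 without library 3 of shaken 6 h. The zeitgeber count was 1 without any 1 of the 3 ZT0 libraries, ZT12 library 2, ZT20 library 3 or ZT4 library 3. Leaving out single libraries was not run for the 2 interaction tests.

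Some named values changed sign. With TPM, HisRS at 6 h of shaking had -0.081, SerRS -0.14, AspRS -0.20 and ThrRS -0.23, and HisRS at 12 h had -0.013. In GAL4 29C against TrpA1 21C, AsnRS in R65H02 had 0.039, ThrRS in HC 0.048, PheRS-m in R60F09 0.062 and ProRS-m in R60F09 0.025. PheRS-m in R60F09 TrpA1 29C against TrpA1 21C had 0.22. On the TPM scale the all-gene median was shifted by -0.35 at 6 h and by 0.43 in R60F09 GAL4 29C against TrpA1 21C. Relative to that median 0 of 154 called values changed sign. TMM scaling already centres changes near the median gene, and the 154 were chosen by calls on that scale. This count was therefore largely set in advance and is no separate support for the calls. With the length offset, and with offset and block, AspRS-m at 6 h had 0.0088 and 0.011, GluProRS in R21H11 TrpA1 29C against GAL4 29C 0.15 and 0.15, IleRS there 0.056 and 0.053, and AspRS-m in R65H02 0.027 and 0.029. The replicate numbers are not tied to a shared batch in the labels. Over the zeitgeber times 44 of 45 same-numbered pairs correlated above 0.1 (lowest 0.0531, mean 0.367). Pairs of other numbers had a mean of -0.182 there. The zeitgeber test in the Results did not model this. In the other fits the same-numbered means were between -0.0792 and 0.0792. The block is given only here.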
